A study of Homo sapiens with 18 samples.

Results

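The genes described here are 39 human genes that charge transfer RNAs or belong to the integrated stress response. They comprise the 20 cytosolic aminoacyl-tRNA synthetase genes listed under their older symbols (AARS, CARS and so on, with FARSA and FARSB for the subunits of the phenylalanine enzyme), 6 genes of serine, asparagine and proline synthesis, 6 stress transcription factor genes, and 7 effector or feedback genes with the tRNA exporter XPOT among them. They were listed by name and looked up in a table of 14079 genes, and all 39 were found. Of these, 38 passed the filter on low counts among 10031 genes tested, and NUPR1 did not. Transcription was measured by CAGE, in which a short tag is sequenced from the capped 5′ end of an RNA, so that the number of tags counts transcription starts and does not scale with the length of the gene. Levels are given as CPM, the tags of a gene scaled to a common library size.

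The libraries came from total RNA of acute myeloid leukaemia lines labelled AML2 and AML3, which the count tables name OCI-AML2 and OCI-AML3. The 6 groups are vehicle (DMSO), JQ1 and OTX015 in either line, and each group has 3 libraries. JQ1 and OTX015 are related thienotriazolodiazepines that block the acetyl-lysine pockets of the BET proteins. JQ1 ends in a tert-butyl ester and OTX015 in a hydroxyphenyl amide. The series concerns BET inhibition where NPM1 is mutated. As background, OCI-AML3 carries the NPM1c mutation and OCI-AML2 does not, while the labels give no genotype, dose or treatment time. The contrast of lines therefore sets 1 cell line against 1 other. Nothing in the labels says that the libraries of a group came from separate cultures, so the p-values measure the spread between libraries, which may be technical.

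Aminoacyl-tRNA synthetases join each amino acid to its tRNA and so supply the ribosome. In the integrated stress response, kinases that sense uncharged tRNA, misfolded protein, haem shortage or double-stranded RNA phosphorylate eIF2, which lowers general translation and raises translation of the transcription factor ATF4. ATF4, often paired with a C/EBP protein, is known to switch on most cytosolic synthetase genes, the serine and asparagine synthesis genes and stress genes such as DDIT3, CHAC1 and TRIB3, and its protein level is set mainly by translation, which CAGE does not measure.

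The C/EBP-ATF composite motif, searched as TGATGNAA on both strands, was looked for in the RefSeq promoters (GRCh38.p14, from 250 bases before to 50 after the annotated start). Of the 39 genes, 32 matched a promoter there, and 12 of these held the motif (37.5%), against 4.46% of 27305 genes in that table. DARS, LARS, VARS, YARS, PSPH, PYCR1 and NUPR1 matched none, so every motif count leaves them out. The 6 stretches below carry the same motif upstream of genes that moved differently here. ATF3 and GARS also held it upstream and are not shown. It began 191 bases before the start in ATF3 and 33 in GARS, each in 1 of 2 start windows. ATF3 was higher with each compound in each line, and GARS was lower in AML3. AARS and IARS were lower with each compound in each line, ASNS and CEBPG were lower in AML3, CHAC1 was not called with either compound, and HERPUD1 was called higher in AML2 and lower in AML3 with JQ1. The capitals mark the motif, read 5′ to 3′ on the strand of the gene, and it appears as its reverse complement where it lies on the other strand. The motif began 187 bases before the start in AARS (chr16:70289660-70289719, minus strand), 13 in IARS (chr9:92293698-92293736, minus), 68 in ASNS (chr7:97872443-97872502, minus), 42 in CEBPG (chr19:33374045-33374104, plus), 209 in CHAC1 (chr15:40953236-40953295, plus) and 176 in HERPUD1 (chr16:56931940-56931999, plus). ASNS and CEBPG each had 2 start windows in RefSeq, and the motif was found in 1 of them.
AARS: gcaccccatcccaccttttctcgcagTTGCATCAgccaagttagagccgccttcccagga
IARS: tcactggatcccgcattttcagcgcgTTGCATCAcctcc
ASNS: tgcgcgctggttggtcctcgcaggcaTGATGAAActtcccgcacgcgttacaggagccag
CEBPG: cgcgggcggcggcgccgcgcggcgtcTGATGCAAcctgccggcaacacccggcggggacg
CHAC1: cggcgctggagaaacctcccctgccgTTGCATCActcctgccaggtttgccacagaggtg
HERPUD1: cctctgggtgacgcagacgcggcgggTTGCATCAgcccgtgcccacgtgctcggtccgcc

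The libraries held from 303883 to 2163106 tags in genes. Each drug-treated library was shallower than the vehicle library of its line and number, and in every group the library numbered 3 was the shallowest. The share of tags on the nuclear RNA MALAT1 was 0.102% to 0.291% in vehicle libraries and 1.41% to 6.75% in drug-treated ones. The 20 synthetase genes together took 0.143% to 0.209% of tags in vehicle libraries and 0.0835% to 0.149% with a compound. Of 12 myeloid marker genes 10 were in the table, and their summed mean level was 1319 CPM in AML2 vehicle and 1330 CPM in AML3 vehicle. It was 1372 and 1285 CPM with JQ1 and OTX015 in AML2, and 536 and 537 CPM in AML3. In AML2 single markers moved in opposite directions. The means of FLT3 went from 94.5 to 285 and 299 CPM and those of CEBPA from 349 to 484 and 512 CPM. Those of LYZ went from 250 to 62.6 and 35.5 CPM and those of SPI1 from 355 to 274 and 232 CPM. LYZ in AML2 vehicle stood at 64, 72.7 and 615 CPM in libraries 1, 2 and 3. Of 17 markers of other lineages only 3 were in the table. The means of CD79A and COL1A2 were under 4 CPM in each group, and PECAM1 went from 32.6 CPM with vehicle to 159 and 143 CPM with JQ1 and OTX015 in AML2. The part of depth, MALAT1 and these markers in the changes below was not tested, and in bulk RNA fewer cells of a kind and less RNA per cell cannot be told apart.

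The first question was how each compound changed these genes. Most synthetase and amino acid synthesis genes were lower with both compounds in both lines, whereas ATF3, DDIT3 and PPP1R15A were higher. By edgeR's quasi-likelihood test with Benjamini-Hochberg adjustment over all tested genes (adjusted p under 0.05), 20 of the 38 genes were lower and 4 higher with JQ1 in AML2, where 17.4% of all tested genes were lower and 17.2% higher (34.6% in either direction). With JQ1 in AML3 there were 24 lower and 4 higher, against 24.1% and 26.8% of all genes (50.8% in either direction). OTX015 lowered 20 and raised 3 in AML2, against 19.9% and 20.5% (40.3% in all), and lowered 21 and raised 4 in AML3, against 26.1% and 28.8% (54.9% in all). The median log2 change of the 38 genes was -0.71, -0.82, -0.85 and -0.74 in that order, beside 0, 0.04, 0.02 and 0.03 for all tested genes. JQ1 and OTX015 were set against the same vehicle libraries in each line, so these comparisons are not independent.

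In all, 16 genes were lower in each of the 4 comparisons with vehicle (11 synthetases, PSAT1, PHGDH, ALDH18A1, PYCR1 and XPOT), 3 were higher in each, and 6 were called in none. The same patterns were not counted over all tested genes, so these counts have no share beside them and are a description only. With libraries scaled to their total tag count alone, the median of all tested genes moved up by 0.16 and 0.19 in AML2 and by 0.40 and 0.48 in AML3 (JQ1, then OTX015), and the share of called genes that were higher went from 49.8% to 59.8%, 50.7% to 61.1%, 52.7% to 72.6% and 52.4% to 72.7%. Under that scaling 17, 17, 15 and 15 of the 38 genes were lower and 3, 3, 5 and 6 higher (AML2 first, JQ1 before OTX015). Of all 10031 tested genes 1262, 1441, 1370 and 1512 were lower there, beside 1742, 1993, 2414 and 2619 with the scaling used elsewhere. Those higher under it numbered 1881, 2262, 3635 and 4029.

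**Figure D1:**
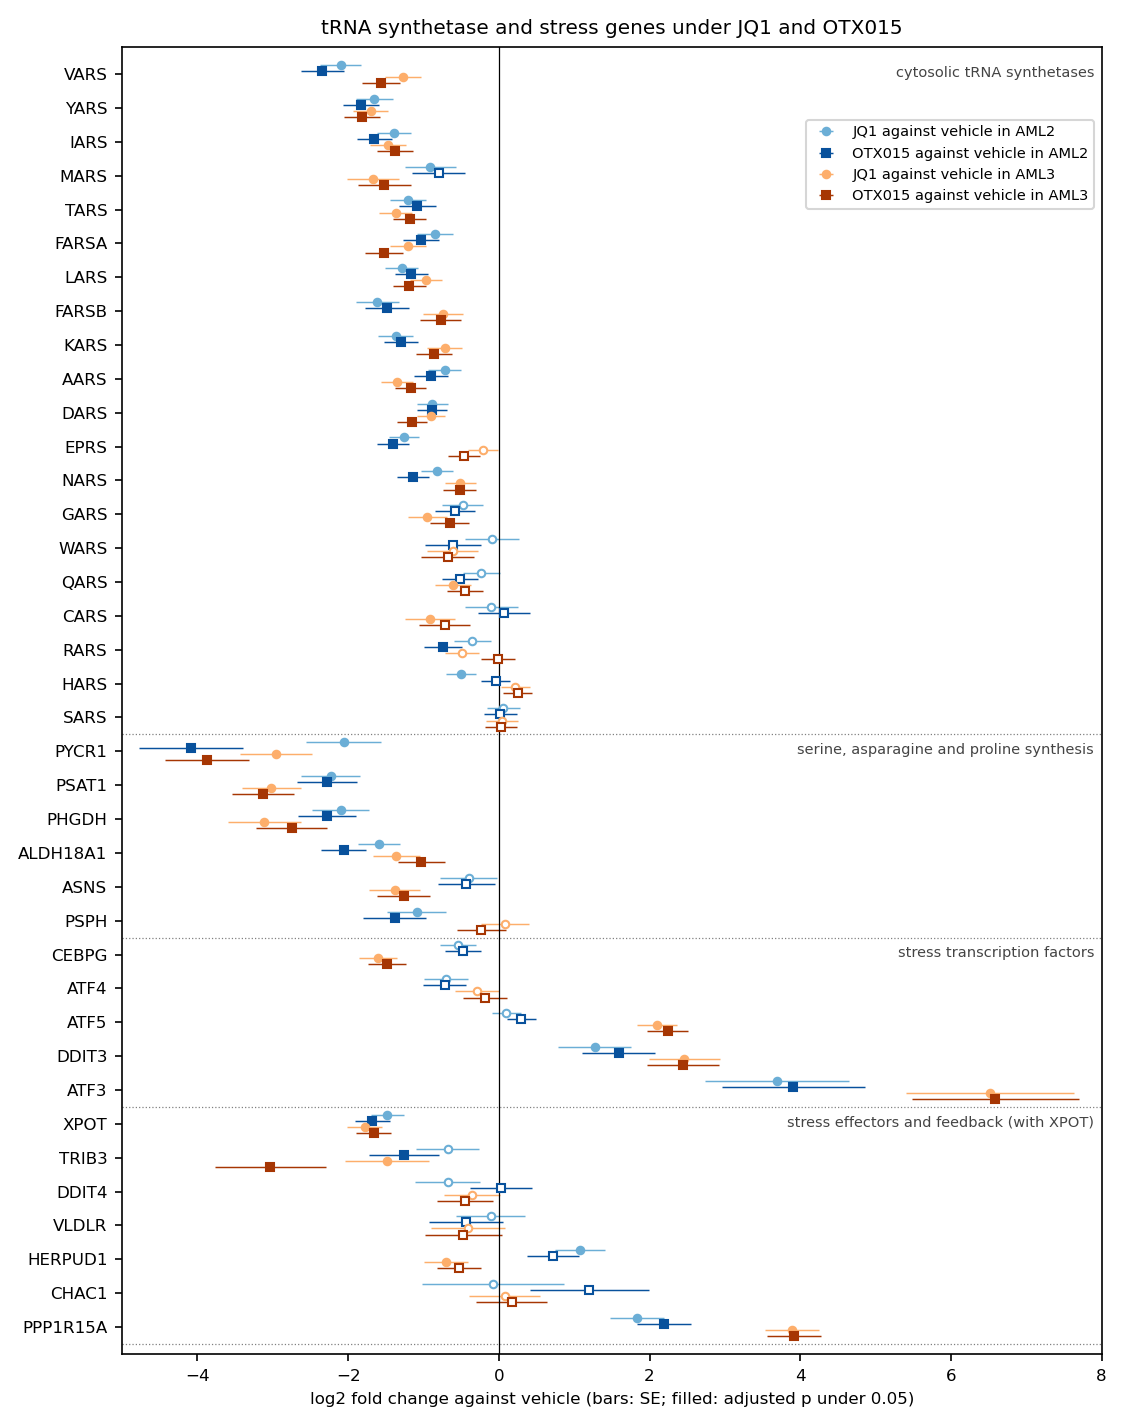
Log2 fold change against vehicle (x axis) of each of the 38 tested genes, grouped by role, with 1 marker per compound and line and bars for the SE; filled markers passed adjusted p under 0.05. Synthetase and amino acid synthesis genes lie mostly left of 0, and ATF3, PPP1R15A and DDIT3 lie to the right, further in AML3 (6.52, 3.89 and 2.46 with JQ1) than in AML2 (3.69, 1.83 and 1.27).

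Among the 20 synthetase genes, 14 were lower with JQ1 in AML2, 15 with JQ1 in AML3, 13 with OTX015 in AML2 and 13 with OTX015 in AML3, and none was higher. The median log2 changes were -0.87, -0.91, -0.97 and -0.82. Under scaling to the total tag count they were -0.71, -0.51, -0.79 and -0.35. AARS, DARS, IARS, KARS, LARS, NARS, TARS, VARS, YARS, FARSA and FARSB were lower in each comparison. Their loss was uneven. VARS and YARS had the most negative changes in AML2, and NARS in AML3 changed by only -0.51 with JQ1 and -0.52 with OTX015, calls that ended when any of several single libraries was left out (without AML3 vehicle library 1, NARS changed by -0.41 with JQ1, adjusted p = 0.182, and by -0.43 with OTX015, adjusted p = 0.162).

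YARS, the tyrosine enzyme, stood at 228, 164 and 231 CPM in the AML2 vehicle libraries, 71.9, 72.3 and 51.2 CPM with JQ1 and 60.7, 64.8 and 46.3 CPM with OTX015. In AML3 it stood at 273, 236 and 197 CPM with vehicle, 78.2, 85.6 and 50.5 CPM with JQ1 and 73.2, 66.8 and 58.1 CPM with OTX015. Every drug-treated library lay below every vehicle library of its line. The log2 changes with JQ1 were -1.65 (SE 0.24, edgeR adjusted p = 7.55e-06) in AML2 and -1.70 (SE 0.23, adjusted p = 2.35e-06) in AML3. With OTX015 they were -1.83 (SE 0.24) and -1.82 (SE 0.24).

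VARS, the valine enzyme, had 59, 91.1 and 88.2 CPM with vehicle in AML2 against 17.1, 16.7 and 22.9 CPM with JQ1 and 16.3, 16.4 and 12.6 CPM with OTX015. In AML3 it had 88.5, 64.9 and 108 CPM with vehicle, 38.2, 40.2 and 25.3 CPM with JQ1 and 32.8, 21.9 and 34.5 CPM with OTX015. The groups did not overlap in either line. VARS changed by -2.1 (SE 0.27) and -2.34 (SE 0.28) on the log2 scale in AML2 and by -1.27 (SE 0.24) and -1.56 (SE 0.25) in AML3, and the difference between the lines was not called (adjusted p = 0.189 for JQ1 and 0.242 for OTX015).

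IARS, the isoleucine enzyme, was at 87.6, 95.5 and 126 CPM in AML2 vehicle libraries and at 21.1 to 43.5 CPM in the 6 drug-treated ones. In AML3 its vehicle libraries held 74.5 to 81.3 CPM and the drug-treated ones 24.9 to 37.2 CPM. The log2 changes ran from -1.38 to -1.65 over the 4 comparisons. TARS, the threonine enzyme, differed between the untreated lines and was lower with each compound in both. It stood at 85.1, 86.8 and 95.8 CPM in AML2 vehicle and 179, 202 and 174 CPM in AML3 vehicle, and its log2 changes were -1.20 and -1.08 in AML2 and -1.37 and -1.18 in AML3 (JQ1, then OTX015). In AML3 JQ1 library 3 TARS was at 45.1 CPM, the lowest of its group, against 74.7 and 90.9 CPM in libraries 1 and 2.

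AARS, the alanine enzyme, was also higher in untreated AML3 (142, 176 and 138 CPM) than in AML2 (101, 84.1 and 75.4 CPM). With JQ1 it was at 61.4, 74 and 39.7 CPM in AML3, a change of -1.35 (SE 0.21, adjusted p = 1.16e-05 by edgeR), and at 58.2, 52.9 and 45.9 CPM in AML2, a change of -0.72 (SE 0.22, adjusted p = 0.0111). The AML2 call for AARS was lost without vehicle library 1 (-0.61, adjusted p = 0.0601) or JQ1 library 3 (-0.63, adjusted p = 0.0575). LARS, KARS and DARS, for leucine, lysine and aspartate, changed by -0.72 to -1.37 over the 4 comparisons, and FARSA and FARSB, whose proteins form 1 enzyme, by -0.85 and -1.61 with JQ1 in AML2 and by -1.21 and -0.74 with JQ1 in AML3. Without JQ1 library 1 the AML2 call of FARSA ended (-0.67, adjusted p = 0.0569), and without JQ1 library 3 that of KARS in AML3 (-0.52, adjusted p = 0.0615). The FARSB call in AML3 ended without vehicle library 2 (-0.59 with JQ1, adjusted p = 0.105, and -0.62 with OTX015, adjusted p = 0.0883).

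EPRS, the fused glutamate and proline enzyme, was the only synthetase of the 20 whose response was called different between the lines. Its AML2 libraries held 122, 116 and 125 CPM with vehicle, 44.5, 53.8 and 52.9 CPM with JQ1 and 46.7, 42.6 and 48.4 CPM with OTX015. Its AML3 libraries held 84.4, 78.7 and 83.7 CPM with vehicle, 74.7, 74 and 63.1 CPM with JQ1 and 75.4, 59.1 and 38.8 CPM with OTX015. EPRS changed by -1.26 (SE 0.20) and -1.40 (SE 0.21) in AML2, whereas the changes of -0.21 (SE 0.20) and -0.46 (SE 0.21) in AML3 did not pass the test. The AML3 drug-treated libraries nevertheless all lay below the AML3 vehicle libraries.

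**Figure D2:**
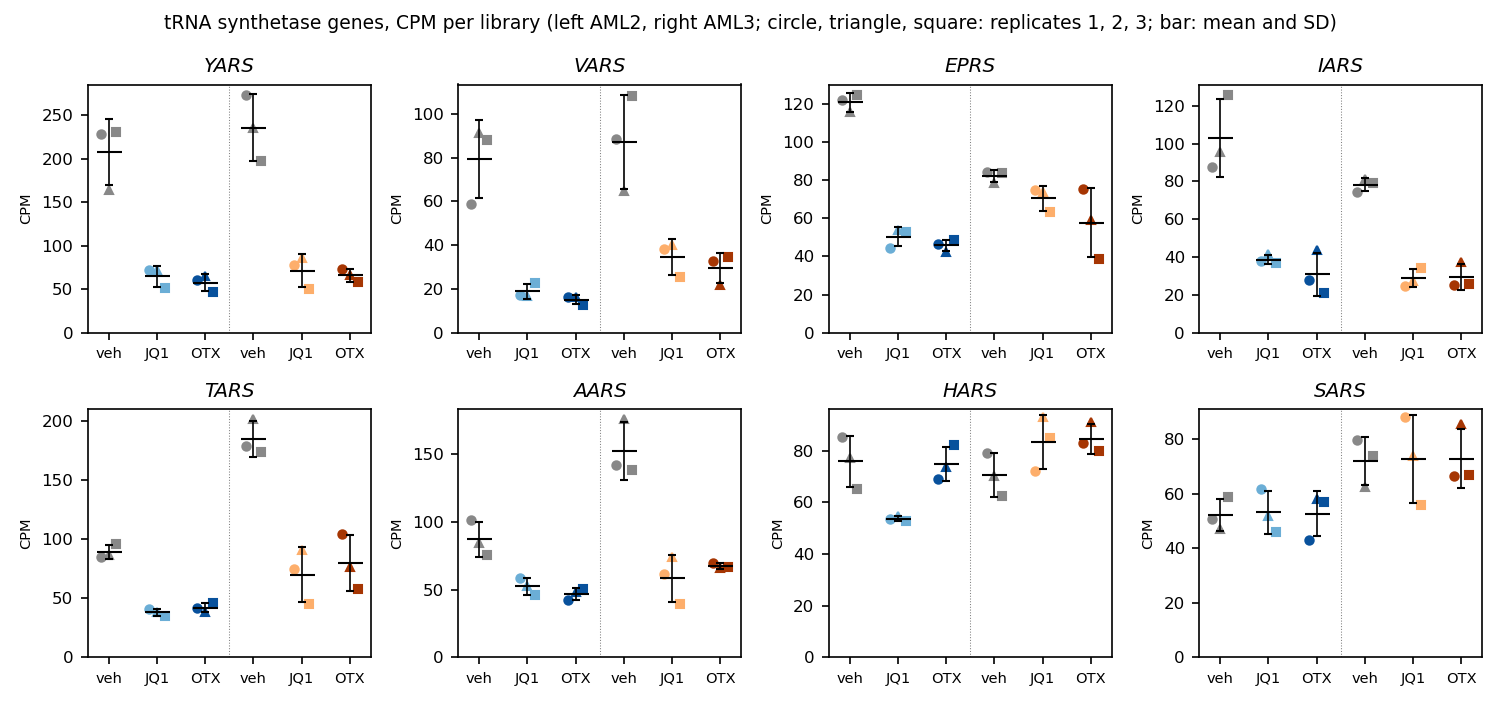
CPM (y axis) of 8 synthetase genes in each of the 18 libraries, with AML2 groups left and AML3 groups right of the dotted line; shapes give the replicate number and black bars the mean and SD of 3 libraries. YARS, VARS, IARS, TARS and AARS are lower with both compounds in both lines, EPRS mainly in AML2, and SARS stays between 43.2 and 88 CPM in all groups.

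The fall did not extend to each synthetase. SARS, the serine enzyme, was at 47.2 to 58.8 CPM in AML2 vehicle libraries and 43.2 to 61.6 CPM in the drug-treated ones, and its log2 changes were 0.06, 0.04, 0.02 and 0.03 (95% intervals within -0.43 and 0.50). HARS, for histidine, was called only with JQ1 in AML2, at -0.50 (SE 0.20, adjusted p = 0.0488), where its libraries went from 85.1, 77 and 65.2 to 53.6, 54.6 and 52.9 CPM. That call ended under each of 5 single-library removals (without vehicle library 1, HARS changed by -0.42, adjusted p = 0.158). WARS, for tryptophan, was called in no comparison at the level of the gene, and its AML3 libraries numbered 3 were low with both compounds (36.1 and 38.8 CPM against 95.1 to 135 CPM in the others).

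The remaining 5 synthetases, CARS, GARS, MARS, QARS and RARS, were called lower in some comparisons. GARS and MARS, for glycine and methionine, were lower in AML3 with both compounds, by -0.95 and -0.65 for GARS and -1.67 and -1.52 for MARS. The call of MARS with JQ1 in AML2 (-0.91) rested on vehicle library 3, which held 157 CPM against 53.1 and 45.6 CPM in libraries 1 and 2. Without it MARS changed by -0.20 (adjusted p = 0.616). The GARS call with OTX015 ended without AML3 vehicle library 2 (-0.46, adjusted p = 0.185). RARS was lower with OTX015 in AML2 only (-0.74), and without OTX015 library 1 it changed by -0.59 (adjusted p = 0.115). CARS (-0.91) and QARS (-0.61) were called with JQ1 in AML3 only, and without JQ1 library 3 they changed by -0.73 (adjusted p = 0.0813) and -0.43 (adjusted p = 0.155).

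XPOT, which carries mature tRNA out of the nucleus, fell beside the enzymes. Its AML2 libraries held 118, 196 and 195 CPM with vehicle, 51.4, 73.2 and 56.4 CPM with JQ1 and 56, 55.1 and 46.3 CPM with OTX015. Its AML3 libraries held 193, 180 and 191 CPM with vehicle, 59.6, 56 and 46.9 CPM with JQ1 and 54.6, 69 and 53.8 CPM with OTX015. No drug-treated library reached the lowest vehicle library. XPOT changed by -1.48 (SE 0.22) and -1.78 (SE 0.23) on the log2 scale with JQ1 in AML2 and AML3, and by -1.68 (SE 0.23) and -1.66 (SE 0.23) with OTX015.

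The amino acid synthesis genes had more negative medians than the synthetases. In each comparison 5 of the 6 were lower, but not the same 5. PSAT1, PHGDH, ALDH18A1 and PYCR1 were lower in all 4, PSPH in AML2 and ASNS in AML3. The medians were -1.82, -2.17, -2.17 and -2 in the order given above (JQ1 first, AML2 before AML3). PSAT1 and PHGDH, which catalyse the early steps of serine synthesis from a glycolytic intermediate, lost most of their tags. PSAT1 had 72.5, 62.4 and 67.7 CPM with vehicle in AML2, then 14.8, 15.9 and 10.6 CPM with JQ1 and 15.2, 15.5 and 8.42 CPM with OTX015. In AML3 PSAT1 had 133, 89.1 and 52.5 CPM with vehicle, 14.2, 14.8 and 1.8 CPM with JQ1 and 13.1, 14.2 and 0 CPM with OTX015.

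The vehicle and drug-treated libraries of PSAT1 were well apart, and the lowest values were those of library 3. PSAT1 changed by -2.23 (SE 0.39, adjusted p = 7.52e-05 by edgeR) and -3.02 (SE 0.39, adjusted p = 9.64e-07) with JQ1 in AML2 and AML3, which are 4.7-fold and 8.1-fold reductions, and by -2.28 (SE 0.40) and -3.13 (SE 0.41) with OTX015. PHGDH had 79.2, 61.8 and 66.4 CPM in AML2 vehicle and 4.21 to 19.8 CPM with a compound. In AML3 it had 53.4, 62.3 and 18.4 CPM with vehicle and 0 to 8.76 CPM with a compound. PHGDH changed by -2.1 (SE 0.38) and -3.11 (SE 0.48) with JQ1 and by -2.28 (SE 0.39) and -2.75 (SE 0.47) with OTX015, in AML2 and AML3.

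PSPH, the last enzyme of serine synthesis, did not follow them in AML3. It was at 27, 19 and 16.6 CPM in AML2 vehicle, 4.57, 10.6 and 15.9 CPM with JQ1 and 3.5, 11.6 and 8.42 CPM with OTX015, changes of -1.09 (SE 0.39, adjusted p = 0.0322 by edgeR) and -1.38 (SE 0.42, adjusted p = 0.00998). In AML3 it was at 29.3, 30.3 and 22.7 CPM with vehicle, 27.6, 20.1 and 45.1 CPM with JQ1 and 19.7, 25.2 and 28 CPM with OTX015, with changes of 0.08 (SE 0.32) and -0.23 (SE 0.33) that did not pass. The difference between the lines was not called for PSPH (1.17, adjusted p = 0.183 for JQ1, and 1.15, adjusted p = 0.209 for OTX015). The AML2 calls of PSPH were lost without JQ1 library 1 (-0.74, adjusted p = 0.187) and without OTX015 library 1 (-1, adjusted p = 0.0851).

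ALDH18A1 and PYCR1 catalyse steps of proline synthesis from glutamate. ALDH18A1 changed by -1.59 (SE 0.28) and -2.06 (SE 0.30) in AML2 and by -1.36 (SE 0.31) and -1.03 (SE 0.31) in AML3, with JQ1 and OTX015. PYCR1 had 18.5, 16.3 and 14.1 CPM in AML2 vehicle and 27, 27.7 and 26.9 CPM in AML3 vehicle. With JQ1 it had 1.14, 6.17 and 3.53 CPM in AML2 and 4.45, 4.23 and 0 CPM in AML3, changes of -2.06 (SE 0.50) and -2.96 (SE 0.48). Without AML2 JQ1 library 2 the first was -2.90. With OTX015 only 2 tags of PYCR1 remained in AML2 against 63 with vehicle, a ratio of vehicle to OTX015 of 19.5 (95% interval 5.19 to 165, counting error only), and 4 tags remained in AML3 against 97.

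ASNS, asparagine synthetase, stood at 25.3, 27.1 and 23 CPM in AML2 vehicle and at 10.5 to 27.4 CPM with a compound, changes of -0.40 (SE 0.38) and -0.43 (SE 0.38) that did not pass. In AML3 it stood at 69.8, 57.1 and 24.1 CPM with vehicle, 16, 27.5 and 16.2 CPM with JQ1 and 29.5, 23 and 8.61 CPM with OTX015, and was lower by -1.38 (SE 0.34) and -1.26 (SE 0.35). The third vehicle library of AML3 lay within the drug-treated values. The ASNS effects of the lines were not called different (adjusted p = 0.285 and 0.384).

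The stress transcription factors went in opposite directions. ATF3, a stress-induced bZIP factor, rose from near absence. Its AML2 libraries held 5.06, 8.68 and 7.67 CPM with vehicle, 66.2, 32.6 and 205 CPM with JQ1 and 42, 49.3 and 267 CPM with OTX015. Its AML3 libraries held 3.52, 0.865 and 1.42 CPM with vehicle, 63.1, 56 and 554 CPM with JQ1 and 111, 125 and 465 CPM with OTX015. In each drug group library 3, the shallowest, was far above the other 2, and in each line the lowest drug-treated library was still above the highest vehicle library.

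The log2 changes of ATF3 were 3.69 (SE 0.96, adjusted p = 0.00385 by edgeR) and 3.91 (SE 0.95, adjusted p = 0.00196) in AML2 and 6.52 (SE 1.11, adjusted p = 3.83e-05) and 6.59 (SE 1.11, adjusted p = 2.65e-05) in AML3. The AML3 vehicle libraries held 8 ATF3 tags in all. Without library 3 of the drug group, the ATF3 changes were 2.73 and 2.63 in AML2 and 4.67 and 5.66 in AML3, all still called. Without AML3 vehicle library 1 they were 7.46 and 7.53 in AML3.

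DDIT3 encodes CHOP, a C/EBP family protein linked to cell death under lasting stress. It was at 36.2, 17.9 and 28.1 CPM in AML2 vehicle, 35.4, 39.7 and 132 CPM with JQ1 and 49, 58 and 149 CPM with OTX015. In AML3 it was at 24, 16.4 and 26.9 CPM with vehicle, 90.7, 76.1 and 215 CPM with JQ1 and 96.1, 99.7 and 179 CPM with OTX015. The AML2 JQ1 libraries overlapped the vehicle libraries, and the other 3 drug groups did not. DDIT3 rose by 1.27 (SE 0.48, adjusted p = 0.0423 by edgeR) and 1.59 (SE 0.48, adjusted p = 0.00992) in AML2 and by 2.46 (SE 0.47) and 2.44 (SE 0.48) in AML3. The AML2 calls of DDIT3 rested on library 3: without it the changes were 0.52 (adjusted p = 0.435) with JQ1 and 1.01 (adjusted p = 0.108) with OTX015. They also ended without vehicle library 2 (0.98, adjusted p = 0.184, and 1.30, adjusted p = 0.0658). In the annotation the 3′ end of DDIT3 overlaps that of MARS on the other strand of chromosome 12, while their starts lie apart.

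ATF5, which like ATF4 is controlled by upstream reading frames in its RNA, rose in AML3 only from a low starting level. AML3 held 11.1, 8.65 and 8.51 CPM with vehicle, 48.9, 34.9 and 41.5 CPM with JQ1 and 44.8, 51.5 and 40.9 CPM with OTX015. AML2 held 75.8, 97.6 and 102 CPM with vehicle, 95.9, 89 and 113 CPM with JQ1 and 132, 98.7 and 107 CPM with OTX015. The AML3 groups were well apart, while those of AML2 overlapped, and the treated AML3 libraries remained below the untreated AML2 libraries. ATF5 rose by 2.1 (SE 0.27, adjusted p = 1.15e-06 by edgeR) and 2.24 (SE 0.27, adjusted p = 3.56e-07) in AML3, and changed by 0.10 (SE 0.19) and 0.30 (SE 0.19) in AML2, where it was not called. Library 3 did not stand apart for ATF5.

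ATF4 itself was not called with either compound at the level of the gene. It was at 303, 316 and 529 CPM in AML2 vehicle, 179, 232 and 295 CPM with JQ1 and 184, 226 and 288 CPM with OTX015, changes of -0.70 (SE 0.29, adjusted p = 0.0644) and -0.72 (SE 0.29, adjusted p = 0.0531) by edgeR. In AML3 it was at 392, 394 and 328 CPM with vehicle, 245, 240 and 435 CPM with JQ1 and 283, 283 and 424 CPM with OTX015, changes of -0.29 (SE 0.29) and -0.18 (SE 0.29). Library 3 of each AML3 drug group lay above all vehicle libraries, and the other 2 lay below them. In the authors' table of short start regions, the region with 99.8% of the ATF4 tags was called lower with OTX015 in AML2 (-0.75, SE 0.30, adjusted p = 0.0464 by edgeR over regions) and not with JQ1 (-0.74, SE 0.30, adjusted p = 0.0549), so these values lie on either side of the threshold.

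CEBPG, a C/EBP partner of ATF4, fell in AML3 from 93.8, 123 and 99.3 CPM to 44.5, 33.8 and 21.6 CPM with JQ1 and 40.4, 46 and 21.5 CPM with OTX015. The changes were -1.60 (SE 0.25, adjusted p = 1.2e-05 by edgeR) and -1.48 (SE 0.25, adjusted p = 2.77e-05). In AML2 it had 84.3, 88.4 and 83.1 CPM with vehicle and 42.3 to 68.8 CPM with a compound. The AML2 changes of -0.54 (SE 0.24) and -0.48 (SE 0.24) did not pass for CEBPG, although no drug-treated library reached the vehicle range, and the lines were not called different (adjusted p = 0.0608 and 0.0769).

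NUPR1, a small stress-induced chromatin protein, had 23 tags in all libraries together and was not tested. It had 13 tags in AML2 vehicle and 0 with either compound. Against a floor of 3 tags over the drug group, the vehicle ratio was 2.93 for JQ1 and 2.69 for OTX015. These floor ratios leave out the counting error of the vehicle tags and are not lower bounds. In AML3 NUPR1 had 8 tags with vehicle, 0 with JQ1 (ratio 1.96 by the same floor) and 2 with OTX015 (vehicle to OTX015 ratio 2.57, 95% interval 0.513 to 24.9).

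Of the effectors, PPP1R15A, which encodes GADD34 and directs the phosphatase that reverses eIF2 phosphorylation, rose in each comparison. Its AML2 libraries held 18.5, 10.3 and 21.7 CPM with vehicle, 44.5, 52 and 77.6 CPM with JQ1 and 53.7, 63.9 and 109 CPM with OTX015. Its AML3 libraries held 12.3, 8.65 and 9.93 CPM with vehicle, 115, 127 and 244 CPM with JQ1 and 130, 149 and 213 CPM with OTX015. The groups did not overlap in either line, and library 3 was again the highest of each drug group. PPP1R15A rose by 1.83 (SE 0.36, adjusted p = 0.000338 by edgeR) and 2.19 (SE 0.36, adjusted p = 2.81e-05) in AML2 and by 3.89 (SE 0.36, adjusted p = 8.82e-09) and 3.92 (SE 0.36, adjusted p = 6.11e-09) in AML3.

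HERPUD1, a part of the machinery that removes misfolded proteins from the endoplasmic reticulum, was the only one of the 38 genes called in opposite directions. It went from 32, 20.6 and 37.1 CPM to 33.1, 51.1 and 108 CPM with JQ1 in AML2, a rise of 1.08 (SE 0.33, adjusted p = 0.0134 by edgeR), and from 140, 143 and 129 CPM to 69.4, 75 and 115 CPM with JQ1 in AML3, a change of -0.70 (SE 0.29, adjusted p = 0.0448). In AML2 the groups overlapped, and in AML3 they did not. Without JQ1 library 3 the AML2 change of HERPUD1 was 0.59 (adjusted p = 0.165), without vehicle library 2 it was 0.83 (adjusted p = 0.0993), and the AML3 call ended without any of 5 single libraries (-0.57, adjusted p = 0.157, without JQ1 library 1). With OTX015 the changes were 0.72 (SE 0.35) and -0.53 (SE 0.29), neither called.

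TRIB3, a pseudokinase that restrains ATF4 and CHOP, was lower rather than higher. It had 16.4, 18.2 and 8.51 CPM in AML3 vehicle, 5.34, 5.28 and 5.41 CPM with JQ1 and 2.18, 2.19 and 0 CPM with OTX015, changes of -1.48 (SE 0.56, adjusted p = 0.0304 by edgeR) and -3.03 (SE 0.74, adjusted p = 0.00124). In AML2 it had 21.1, 15.2 and 56.2 CPM with vehicle, 14.8, 13.2 and 28.2 CPM with JQ1 and 7.01, 10.6 and 21.1 CPM with OTX015. The AML2 changes of TRIB3 were -0.68 (SE 0.42), not called, and -1.26 (SE 0.46, adjusted p = 0.0302), and the latter was -0.61 (adjusted p = 0.274) without vehicle library 3. With JQ1 in AML3 the call ended without any of 4 single libraries (-1.39, adjusted p = 0.0862, without vehicle library 1).

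CHAC1, which breaks down glutathione, DDIT4, which restrains mTORC1, and VLDLR, a lipoprotein receptor, were called with neither compound. CHAC1 had 18.8, 30.3 and 5.67 CPM in AML3 vehicle and 6.46 to 32.8 CPM with a compound, and 3.37, 1.63 and 5.11 CPM in AML2 vehicle against 0.881 to 12.6 CPM. Its intervals were wide, with SE from 0.47 to 0.94. DDIT4 was highest in library 3 of every drug group (75.9, 118, 128 and 103 CPM against 21.7 to 84.5 CPM in the other 2), and its changes were -0.68, -0.36, 0.03 and -0.45 in the order given above (JQ1 first, AML2 before AML3). VLDLR lay between 0 and 16.4 CPM in all libraries.

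**Figure D3:**
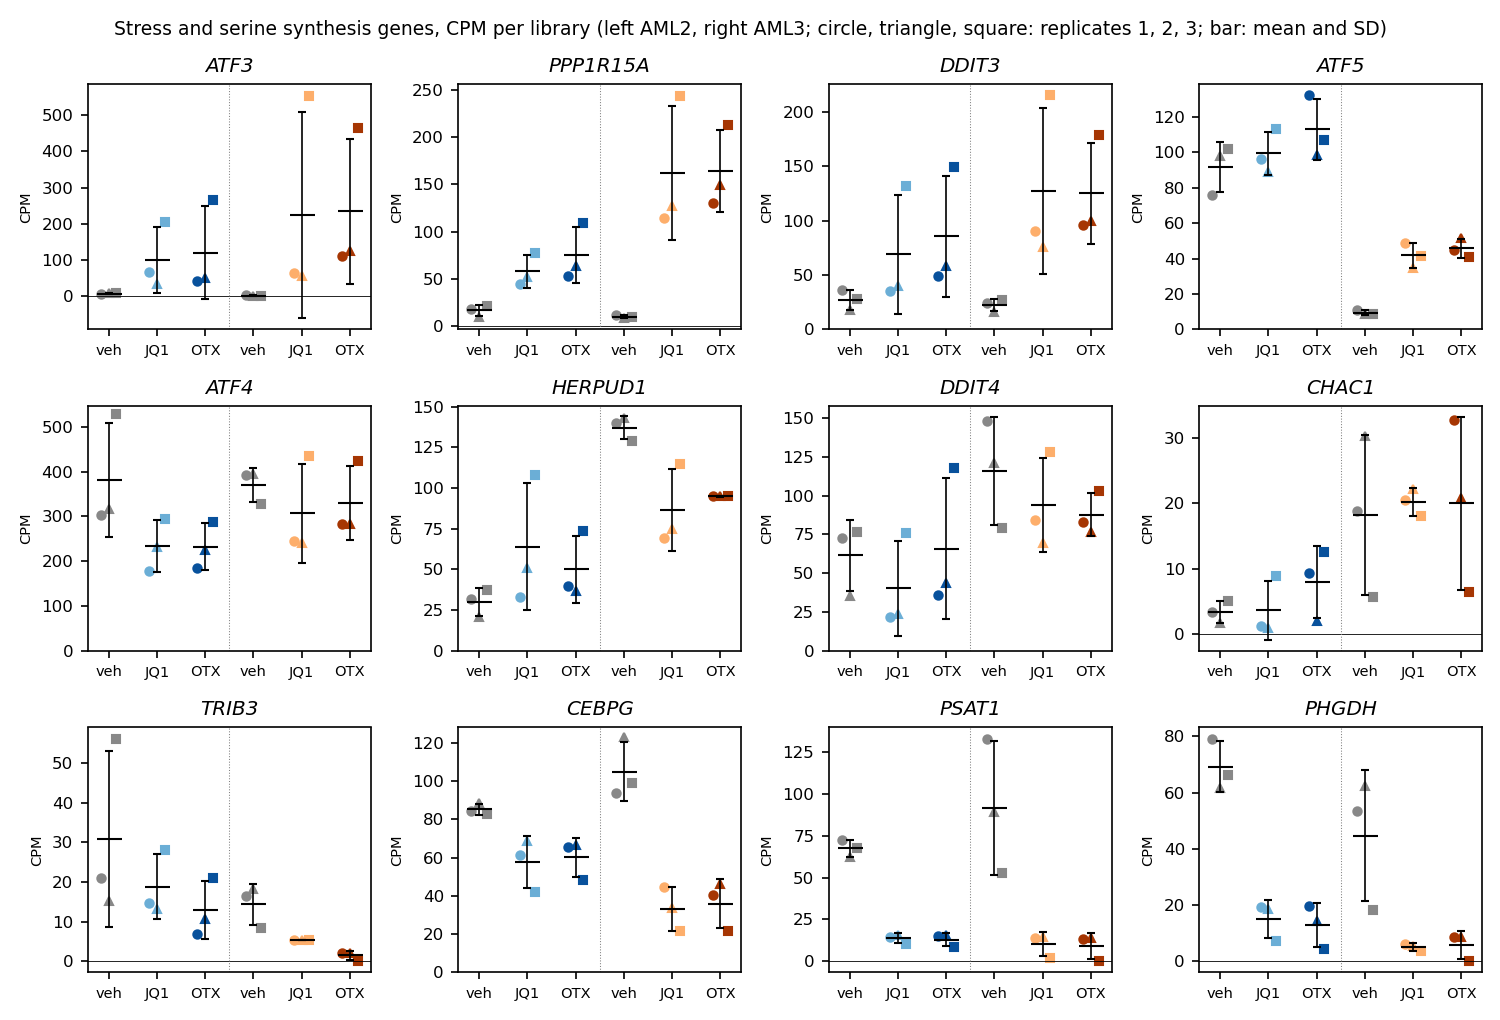
CPM (y axis) of 12 stress and serine synthesis genes in each of the 18 libraries, with AML2 groups left and AML3 groups right of the dotted line; shapes give the replicate number and black bars the mean and SD of 3 libraries. Squares (library 3) stand highest in the drug groups for ATF3, DDIT3, PPP1R15A and DDIT4, with ATF3 at 554 CPM in AML3 JQ1 library 3 against 63.1 and 56 CPM in the others, while PSAT1 and PHGDH are low in all drug-treated libraries.

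Before treatment the share of these genes that differed between the lines was near that of all genes. With vehicle, 5 of the 38 were higher and 5 lower in AML3 than in AML2, where 11.4% and 11.7% of all tested genes were (23% in all). With libraries scaled to total tag count the median of all genes moved by 0.15, and the share of called genes that were higher went from 49.4% to 61%. Under that scaling 7 of the 38 were higher and 1 lower, beside 1205 higher and 770 lower of all 10031 tested genes. The differences with the largest size were CHAC1 (2.67, SE 0.61, adjusted p = 0.00195 by edgeR) and HERPUD1 (2.25, SE 0.31, adjusted p = 3.98e-06), both higher in AML3, and ATF5 (-3.22, SE 0.25, adjusted p = 2.75e-10), lower in AML3. AARS (0.81), TARS (1.06) and ASNS (1.05) were higher in AML3, and EPRS (-0.55), KARS (-0.58), NARS (-0.56) and ALDH18A1 (-0.76) were lower.

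Several of these calls did not hold with 1 library fewer. Those of EPRS, KARS, NARS and ALDH18A1 each ended under 4 or more single-library removals (for EPRS, -0.52 with adjusted p = 0.115 without AML3 vehicle library 2). The ASNS difference ended without AML3 vehicle library 1 (0.73, adjusted p = 0.179). Vehicle libraries 1 and 2 of AML3 held 69.8 and 57.1 CPM of ASNS, and library 3 held 24.1 CPM, within the range of AML2.

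The design also asks whether a compound acted differently in the lines. With JQ1 the effect on 4 of the 38 genes differed by the interaction term, 3 with a more positive effect in AML3 and 1 with a more negative one, where 3.02% and 3.92% of all tested genes did (6.94% in all). ATF5 differed by 1.99 (SE 0.34, adjusted p = 0.000367 by edgeR), PPP1R15A by 2.06 (SE 0.53, adjusted p = 0.0161), EPRS by 1.05 (SE 0.29, adjusted p = 0.0237) and HERPUD1 by -1.78 (SE 0.44, adjusted p = 0.0123). With OTX015 there were 3 and 0, against 2.84% and 4.81% of all genes (7.65% in all). These were ATF5 (1.94, SE 0.34, adjusted p = 0.000458), PPP1R15A (1.73, SE 0.53, adjusted p = 0.0431) and EPRS (0.94, SE 0.30, adjusted p = 0.0492).

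ATF5 kept its call under every alternative tried. The other interaction calls were less firm. The HERPUD1 difference was -1.54 (adjusted p = 0.0575) without AML2 vehicle library 2, the PPP1R15A difference with JQ1 was 1.93 (adjusted p = 0.0532) without AML2 vehicle library 1, and that with OTX015 ended under 9 single-library removals (1.51, adjusted p = 0.08, without AML3 OTX015 library 3). The EPRS difference with OTX015 ended under 11 removals (0.70, adjusted p = 0.196, without AML3 OTX015 library 1) and with JQ1 under 5 (0.96, adjusted p = 0.0824, without AML2 JQ1 library 1). ATF3 rose more in AML3 by 2.82 (SE 1.73) with JQ1 in the fitted values, but this difference was not called (adjusted p = 0.374).

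**Figure D4:**
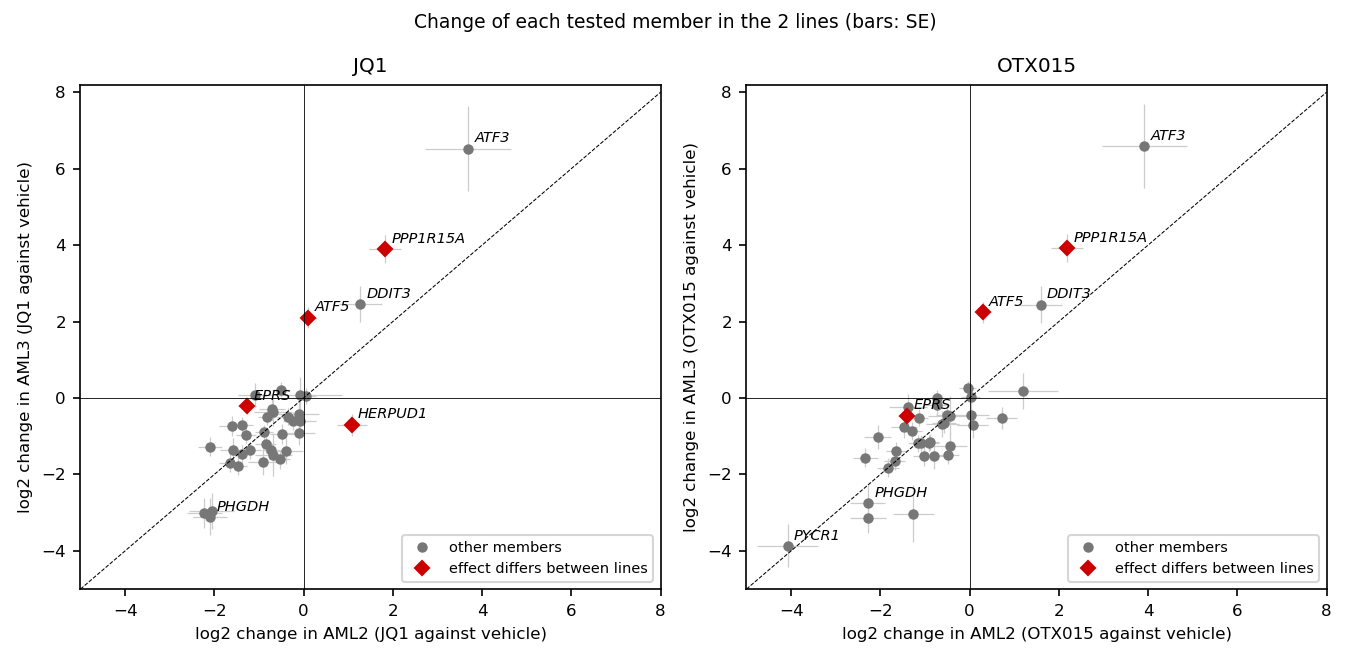
Log2 change against vehicle in AML2 (x axis) and AML3 (y axis) of the 38 tested genes for JQ1 (left) and OTX015 (right), with bars for the SE and a dashed line of equal change; red diamonds mark genes whose effect differed between lines by the interaction term. ATF5 and PPP1R15A lie above the line with both compounds (interaction 1.99 and 2.06 with JQ1), EPRS lies above it near 0 on the AML3 axis, and HERPUD1 lies below it with JQ1.

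Setting OTX015 against JQ1 compared the 2 compounds in each line, with 38 genes in each and p-values adjusted over all 10031. No gene of any kind was called by edgeR (0% of tested genes in either line), although 331 genes in AML2 and 253 in AML3 had an unadjusted p under 0.05. DESeq2 called 1 gene in AML2 and 0 in AML3, none of them among the 38. These fits did not pair libraries. A further fit took the library number as a block, because the deviations of same-numbered libraries correlated. Correlations of differently numbered libraries reached 0.184 in AML2 and 0.375 in AML3. With the number as a block edgeR also called 0, with 450 and 335 genes at an unadjusted p under 0.05. As the labels give no doses or times, it is not known whether these were matched, and a p that misses the threshold does not show that the compounds acted alike.

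Among the 38 genes HARS and PYCR1 in AML2 had an unadjusted p under 0.05 without the block. With it DDIT4 did too (0.71 higher with OTX015 in AML2, SE 0.35, unadjusted p = 0.0461 and adjusted p = 1 by edgeR), and in AML3 none of the 38 did in either fit. The intervals that follow come from the fit without the block. HARS was 0.46 higher with OTX015 than with JQ1 (95% interval 0.04 to 0.88, adjusted p = 1 by edgeR), with 68.9, 73.5 and 82.1 CPM against 53.6, 54.6 and 52.9 CPM. PYCR1 differed by -2.02 (95% interval -3.96 to -0.08, adjusted p = 1). The intervals lay within a 2-fold difference either way for 24 of the 38 genes in AML2 and 29 in AML3. For YARS the difference was -0.18 (-0.70 to 0.34) in AML2 and -0.13 (-0.64 to 0.39) in AML3, and for PPP1R15A 0.36 (-0.30 to 1.02) and 0.03 (-0.55 to 0.61). For ATF3 the intervals without the block were wide (-1.32 to 1.75 in AML2 and -1.34 to 1.49 in AML3). With the block ATF3 differed by 0.12 (-0.51 to 0.76) in AML2 and by 0.45 (-0.12 to 1.02) in AML3. TRIB3 in AML3 differed by -1.55 (-3.46 to 0.36) without the block.

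Other genes of the same pathways were taken from lists. Their counts are read against the shares of all tested genes, which in the order given above (JQ1 first, AML2 before AML3) were 17.4%, 24.1%, 19.9% and 26.1% lower and 17.2%, 26.8%, 20.5% and 28.8% higher. The scaffold proteins AIMP1 and AIMP2, which hold several synthetases in 1 complex, were lower in each of the 4 comparisons, by -0.74 to -1.39. Of 14 tested mitochondrial synthetases 7, 5, 9 and 3 were lower and 0, 1, 0 and 1 higher, in the same order. The 3 of 14 lower with OTX015 in AML3 are no larger a share than that of all genes. RARS2, the mitochondrial arginine enzyme, was the one that rose, by 1.11 (SE 0.28) and 1.40 (SE 0.27) in AML3.

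Of 16 tested genes for eIF2, its kinases, eIF2B and regulators, 5, 4, 7 and 5 were lower and 0, 2, 0 and 1 higher, in the same order, and in AML3 the lower shares were near those of all genes. EIF2S2, the beta subunit of eIF2, fell in all 4 comparisons, with changes of -0.98 and -0.96 in AML2 and of -1.41 and -1.56 in AML3 (JQ1, then OTX015). EIF2AK4 encodes GCN2, the kinase that senses uncharged tRNA. It was lower in AML2, by -0.99 (SE 0.30) and -1.41 (SE 0.32), and changed by -0.27 and 0.05 in AML3, not called.

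Of 22 tested further genes described as ATF4 targets, 7, 11, 7 and 11 were lower and 4, 3, 5 and 3 higher. SHMT2, the mitochondrial enzyme that passes the carbon of serine to folate, fell from 216, 197 and 163 CPM to 48, 37 and 18 CPM with JQ1 in AML3 (-2.41, SE 0.28) and from 160, 181 and 185 CPM to 84.5, 108 and 106 CPM in AML2 (-0.82, SE 0.26). GPT2, a mitochondrial alanine aminotransferase, changed by -1.05 to -2.51, and EIF4EBP1, which restrains cap-dependent translation, by -1.12 to -2.29. VEGFA, a blood vessel growth factor, went opposite ways. It rose from 53.1, 66.7 and 112 CPM to 339, 405 and 310 CPM with JQ1 in AML2 (2.21, SE 0.32) and fell from 121, 132 and 56.7 CPM to 44.5, 60.2 and 34.3 CPM in AML3 (-1.15, SE 0.33).

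Of 20 genes of the unfolded protein response of the endoplasmic reticulum, 6, 4, 5 and 4 were lower and 2, 4, 2 and 5 higher, counts that are no result about the list beside the shares of all genes. ERN1, which encodes the sensor IRE1, rose from 2.53, 10.3 and 7.67 CPM to 26.3, 27.3 and 60 CPM with JQ1 in AML2 (2.28, SE 0.45) and from 4.69, 3.46 and 1.42 CPM to 65.8, 83.5 and 148 CPM in AML3 (4.68, SE 0.46). XBP1, the RNA that IRE1 splices, fell in each comparison, with changes of -1.17 and -1.05 in AML2 and of -1.36 and -1.36 in AML3 (JQ1, then OTX015). The CAGE tags do not show its splicing.

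The authors' second table counts tags in short start regions (promoters), named by hg19 positions. Of the 38 genes with at least 50 tags, 35 could be matched to 1 region (9 genes) or a run of neighbouring regions (26 genes) by their tag counts, and TARS, DDIT4 and HERPUD1 were not matched. Of the genes that rose, the leading region was 16 bases wide in ATF3, ATF5 and PPP1R15A and 19 in DDIT3. The leading regions of the 19 matched synthetases ran from 18 bases in QARS to 138 in VARS. Their median was 49 bases, as it was for all regions with at least 200 tags. Of 16 matched genes that are not synthetases 8 had a leading region of at most 24 bases (50%), of 19 matched synthetases 1 had (5.26%), and of 8986 regions with at least 200 tags 19.6% did. PSAT1 and PHGDH, which fell, were also narrow, at 17 and 24 bases. So were ATF4 and CHAC1, at 22 and 19 bases, which were called with neither compound as genes. These widths are a description and were not tested.

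In all, 46 regions of these genes were among 12867 regions tested, and 7 genes had at least 2. The difference between regions of 1 gene was not tested. AARS starts in 2 abutting regions on chromosome 16 (hg19 chr16:70323383-70323421 with 61.1% of its tags and chr16:70323422-70323463 with 38.9%, minus strand). With JQ1 the first was lower in both lines, by -1 (SE 0.24) in AML2 and -1.37 (SE 0.23) in AML3. The second, upstream one changed by -0.36 (SE 0.30), not called, in AML2 and by -1.29 (SE 0.28, called) in AML3.

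WARS, which was called in no comparison as a gene, had a leading region (chr14:100842613-100842685 in hg19, 76.7% of its tags) that was lower in AML3 with JQ1 (-0.96, SE 0.29, adjusted p = 0.00676 by edgeR over regions) and OTX015 (-0.91, SE 0.29, adjusted p = 0.00937). Its mean went from 103 to 51.5 and 53.6 CPM there. Its second region, downstream at chr14:100841794-100841827 with 12.7% of the tags, had means of 18.1 CPM (SD 8.43) in AML3 vehicle, 21.7 (SD 19.4) with JQ1 and 19.8 (SD 17.6) with OTX015. In AML2 the second region had means of 4.4, 2.12 and 0.393 CPM. It was higher in AML3 than in AML2 with vehicle (2.21, SE 0.69, adjusted p = 0.0199).

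PSPH was not called as a gene in AML3, but its leading region (chr7:56119238-56119302 in hg19, 44.6% of its tags) was called higher there with JQ1 (1.25, SE 0.51, adjusted p = 0.0403 by edgeR over regions). Its mean went from 9.54 CPM (SD 4.13) to 23.4 CPM (SD 17.5). With OTX015 the region was not called (0.90, SE 0.53, adjusted p = 0.155).

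XPOT had 4 regions tested, with 37%, 22.3%, 20.2% and 17.4% of its tags. With JQ1 in AML3 they changed by -2.15 (SE 0.30), -2.25 (SE 0.33), -0.65 (SE 0.28, not called) and -1.99 (SE 0.42). Both PSAT1 regions fell, the leading one with changes of -2.06 (SE 0.38) and -2.85 (SE 0.39) with JQ1 in AML2 and AML3 and the other with -3.78 (SE 0.81) and -4.24 (SE 0.77). The minor IARS region (9% of its tags) changed by -2.67 (SE 0.75) with JQ1 in AML2, beside -1.37 (SE 0.23) for the leading one.

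**Figure D5:**
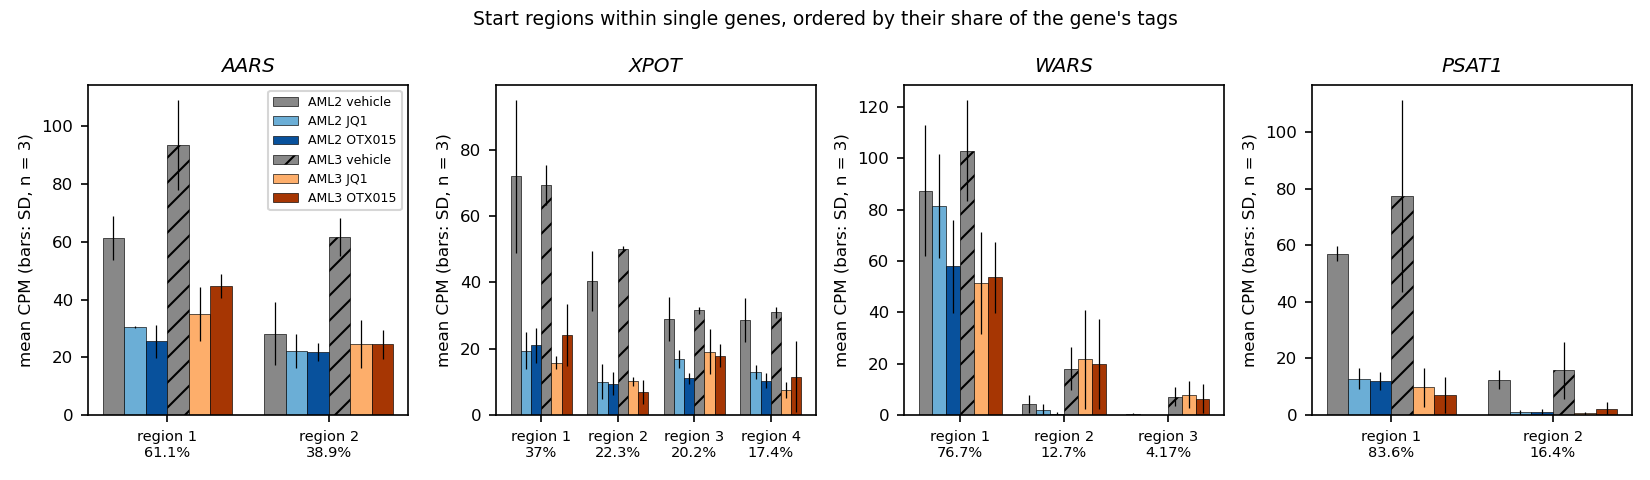
Mean CPM (y axis; bars give the SD of 3 libraries) of the tested start regions of AARS, XPOT, WARS and PSAT1 in the 6 groups, ordered by their share of the tags of the gene. Both AARS regions are lower with a compound in AML3, and the leading WARS region drops in AML3 (103 to 51.5 CPM with JQ1). The second WARS region has AML3 means of 18.1, 21.7 and 19.8 CPM with wide spread (SD 8.43, 19.4 and 17.6). All XPOT and PSAT1 regions have lower means with a compound (the third XPOT region was not called with JQ1 in AML3).

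Of the 12 genes whose RefSeq promoter held the composite motif, 10 were lower and 1 higher with JQ1 in AML3, and 5 were lower and 2 higher with JQ1 in AML2. Of the 20 matched genes without it, 9 were lower and 3 higher in AML3, and 9 were lower and 2 higher in AML2. Of all tested genes, 24.1% were lower and 26.8% higher with JQ1 in AML3, and 17.4% and 17.2% in AML2. Some AML3 calls with JQ1 ended when single libraries were left out. These were CARS, NARS and HERPUD1 with the motif and KARS, QARS, FARSB and TRIB3 without it. The median change with JQ1 was -1.15 with the motif and -0.55 without it in AML3, and -0.51 and -0.68 in AML2. With OTX015 the medians were -0.94 and -0.46 in AML3 and -0.53 and -0.73 in AML2. Of the 12, 5 were higher in untreated AML3 than in AML2 and 1 was lower, while of the 20 none was higher and 4 were lower. In that contrast 11.4% of all tested genes were higher and 11.7% lower. Among the other lists the motif was in 7 of 20 promoters of further ATF4 targets, 1 of 14 of mitochondrial synthetases and 0 of 19 of unfolded protein response genes. The E-box CACGTG, bound by MYC among other factors, was in 4 of the 32 promoters (12.5%) beside 8.77% of all. A match is a description of these letters and not a binding site, and genes share libraries, so these counts and medians carry no test.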

How the data were processed

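CAGE libraries (18, in 6 groups of 3) were mapped with STAR to hg38 per the submitters' processing notes. For the STAR version, the counting tool and any removal of duplicates, the sources used here give nothing. The authors deposited raw tag counts, whole numbers that were not normalized, per gene symbol, per promoter and per enhancer. Promoter names carry hg19 positions, per the file's row names, although the notes name hg38, and these positions are printed as they stand. The enhancer table was not used.

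Counts were analysed in R 4.3.3 with edgeR 4.0.16 (filterByExpr, TMM scaling, quasi-likelihood fit to all 6 groups with 12 residual degrees of freedom), which left 10031 of 14079 genes. P-values were adjusted by the Benjamini-Hochberg method over all tested genes, and adjusted p under 0.05 is a call. SE and 95% intervals come from the same fit, with the residual and prior degrees of freedom of the test (18.5 to 26.5 per gene). DESeq2 1.42.0, other scalings and filters, a replicate block and leaving out single libraries were alternatives. The scripts were tested on simulated data first.

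The members and gene lists were chosen with earlier results of these data known. All members are described, and of each other list the 4 with the smallest adjusted p in any drug comparison were taken as named genes, with values for those described. One gene named by this rule is not reported here. The main fit took no account of the replicate number. Single genes are given from the block fit too where deviations of all 3 same-numbered pairs from their group means correlated above 0.1. That held for OTX015 against JQ1 (0.121, 0.158 and 0.347 in AML2, 0.374, 0.351 and 0.623 in AML3) and for no other contrast. The highest correlation of differently numbered libraries was 0.184 in AML2 and 0.375 in AML3, so the rule does not show pairing by number. One tag was worth 0.542 to 2.15 CPM, which limits the precision of low values, and intervals on tag counts cover counting error only. Genes with processed copies, such as ATF4, could share tags if mapping was not unique. DDIT3 and MARS lie on the 2 strands of 1 locus, but their tags were matched to separate regions. In hg19 these were chr12:57914286-57914304 (minus strand) for DDIT3 and chr12:57881842-57881891 (plus) for MARS.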

Additional observations from a re-analysis of the deposited data

Results flagged for a closer look

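The effect of a compound differed between the lines, by the test of the interaction term in edgeR's quasi-likelihood fit, for 7 combinations of gene and compound. With JQ1 the effect in AML3 minus that in AML2 was 1.99 for ATF5 (SE 0.34, adjusted p = 0.000367), 2.06 for PPP1R15A (SE 0.53, adjusted p = 0.0161), 1.05 for EPRS (SE 0.29, adjusted p = 0.0237) and -1.78 for HERPUD1 (SE 0.44, adjusted p = 0.0123). With OTX015 it was 1.94 for ATF5 (SE 0.34, adjusted p = 0.000458), 1.73 for PPP1R15A (SE 0.53, adjusted p = 0.0431) and 0.94 for EPRS (SE 0.30, adjusted p = 0.0492). JQ1 and OTX015 were set against the same vehicle libraries.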

How the results depend on the processing

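Of 117 called changes of the 38 genes, 81 kept their call and direction under every alternative tried, 36 lost it under 1 or more, and 0 reversed. Depth limits PYCR1, TRIB3, CHAC1 and NUPR1, which rest on few tags. Counts of these genes that moved by over 1.5 times were as follows, and the cause was not tested. With total tag count scaling, the line difference had 1 lower, JQ1 in AML3 had 15 lower and the JQ1 interaction 0 lower. Upper-quartile factors and no filter each left 2 lower in the line difference. With DESeq2 the JQ1 interaction had 2 lower, and 1 gene in all differed between OTX015 and JQ1 in AML2. In fits of the compared groups alone, the line difference had 10 higher and the OTX015 interaction 2 lower. With the replicate number as a block, the line difference had 8 higher, the JQ1 interaction 7 (5 higher, 2 lower) and the OTX015 interaction 6 (2 lower). With libraries 1 and 2 only, the line difference had 17 (14 higher, 3 lower), the JQ1 interaction 10 (5 and 5; 1263 of all genes), the OTX015 interaction 9 (5 and 4; 1410 of all genes), and 4 and 1 genes in all differed between OTX015 and JQ1 in AML2 and AML3. Leaving out 1 library at a time, the line difference had 5 to 8 (4 to 7 higher, 1 to 3 lower), the JQ1 interaction 2 to 5 (1 to 3 higher, 0 to 2 lower; 462 to 723 of all genes) and the OTX015 interaction 1 to 2 (1 to 2 higher, 0 to 1 lower; 552 to 820 of all genes). Over the same removals JQ1 had 20 to 22 in AML2 (2 to 4 higher, 16 to 19 lower) and 22 to 27 in AML3 (18 to 23 lower), and OTX015 20 to 26 (2 to 3 higher, 17 to 23 lower) and 22 to 26 (18 to 22 lower).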
